A study of Mus musculus with 8 samples.

Results

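Acute-phase and complement genes were followed in primary mouse peritoneal mesothelial cells (MCs), the cells that line the abdominal cavity, kept in static culture or exposed to mechanical stretch. The group held the 9 genes Saa3, Lcn2, Hp, C3, Cfb, C1ra, C4b, Cd55 and Serping1, taken by name from the 13687 genes with values, and all 9 passed the filter on low values. The fall of Saa3 on stretch in all 4 animals was among the values the group was selected on, so that fall is given as a description with no test.

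The study compared MCs of WT mice with those of CAV1-/- littermates (B6.Cg-CAV1tm1mls/J), which lack caveolin-1, a membrane protein of caveolae that takes part in sensing mechanical force. The animals, 2 WT and 2 CAV1-/-, each provided a static culture and one exposed to stretch for 24 h, and the 8 resulting RNAseq libraries form 4 groups of 2 cultures: WT static, WT stretch, CAV1-/- static and CAV1-/- stretch. Cells of all groups came from digested parietal peritoneum, were grown to confluence first, and the labels name no further treatment. The knockout was present in all cells of the animal, the ages of the mice are not given in the sources used here, and both sexes were used in the ex vivo experiments. Below, replicates 1 and 2 of a genotype are its 2 animals, so the static and the stretched culture with the same number came from the same animal.

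Acute-phase proteins are secreted in large amounts during inflammation, mostly by the liver but also by epithelial, mesothelial and connective tissue cells, and their genes are classically induced by interleukin-6, interleukin-1 and TNF through STAT3, C/EBP and NF-kB factors. Complement is a cascade of plasma proteins that is started by the C1 complex or by lectins, converges on C3, and is amplified by factor B. Regulators on cells and in plasma, such as CD55 and the C1 inhibitor, hold the cascade in check. In the peritoneum the mesothelium is a local source of both kinds of protein.

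Among the acute-phase genes, Saa3 (ENSMUSG00000040026, chromosome 7, 46711998 to 46715700, minus strand, GRCm38) encodes a serum amyloid A made outside the liver. Hp (ENSMUSG00000031722, chromosome 8, 109575128 to 109579172, minus strand) encodes haptoglobin, which binds free hemoglobin. Lcn2 (ENSMUSG00000026822, chromosome 2, 32384633 to 32388252, minus strand) encodes lipocalin-2, which binds bacterial siderophores. Of the complement genes, C1ra (ENSMUSG00000055172, chromosome 6, 124512405 to 124523443, plus strand) encodes the protease C1r of the C1 complex and C4b (ENSMUSG00000073418, chromosome 17, 34728380 to 34743882, minus strand) the component C4, which C1 cleaves. C3 (ENSMUSG00000024164, chromosome 17, 57203970 to 57228136, minus strand) encodes the central component and Cfb (ENSMUSG00000090231, chromosome 17, 34856374 to 34862518, minus strand) factor B of the alternative pathway. Cd55 (ENSMUSG00000026399, chromosome 1, 130439027 to 130462744, minus strand) encodes decay-accelerating factor, which takes C3 convertases apart. Serping1 (ENSMUSG00000023224, chromosome 2, 84765387 to 84775444, minus strand) encodes the C1 inhibitor.

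Some members share sequence with other genes, which leaves their values less certain. Of all 61-base stretches of their transcripts, the read length used, 71.6% of Cfb also occur in the overlapping gene Gm20547, 46.8% of C1ra mainly in C1rb, and 28.5% of C4b in C4a. For Cd55 the share was 7.67%, mainly with Cd55b, and the antisense gene Gm16083 overlaps it, whose reads cannot be told apart from those of Cd55 where reads are counted without strand. Saa3 shared 2.69% of its stretches with other genes, and Lcn2, Hp, C3 and Serping1 shared none. C1rb, C4a and Cd55b were not among the genes with values, so their own levels cannot be given.

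Promoters are shown for Saa3 and C3, whose levels fell on stretch in every animal, and for Cd55, whose levels did not. Each sequence is the 250 bases before the RefSeq start site (RefSeq, GRCm38.p6), written 5′ to 3′ on the strand of the gene. Capitals mark matches, on either strand, to TTNNGNAA (C/EBP), GGGNNNNNCC (NF-kB), TTCNNNGAA (STAT), CTGGGAA (interleukin-6 response element), TATAAA or TATATA. The windows are chr7:46715677-46715926 (minus strand) for Saa3, chr17:57228137-57228386 (minus strand) for C3 and chr1:130462745-130462994 (minus strand) for Cd55.
Saa3: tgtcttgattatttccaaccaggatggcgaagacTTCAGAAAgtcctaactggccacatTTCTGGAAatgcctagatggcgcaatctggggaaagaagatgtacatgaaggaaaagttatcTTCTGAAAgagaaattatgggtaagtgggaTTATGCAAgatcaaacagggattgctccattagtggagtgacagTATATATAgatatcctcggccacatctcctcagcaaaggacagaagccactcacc
C3: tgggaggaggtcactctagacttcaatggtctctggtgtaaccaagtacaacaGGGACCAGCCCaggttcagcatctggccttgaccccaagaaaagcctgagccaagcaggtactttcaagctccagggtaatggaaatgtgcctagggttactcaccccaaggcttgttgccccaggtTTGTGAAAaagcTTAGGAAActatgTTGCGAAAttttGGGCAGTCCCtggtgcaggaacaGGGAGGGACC
Cd55: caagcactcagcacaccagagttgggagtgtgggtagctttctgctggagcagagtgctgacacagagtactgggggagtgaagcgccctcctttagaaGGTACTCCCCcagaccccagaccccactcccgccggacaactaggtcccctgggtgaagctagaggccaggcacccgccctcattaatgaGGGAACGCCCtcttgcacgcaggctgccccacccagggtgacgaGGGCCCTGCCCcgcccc

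The Saa3 window held 4 matches to the C/EBP letters, which begin 216, 191, 129 and 99 bases before the start, and a run of overlapping TATATA matches from 55 to 48 bases before it. The C3 window held C/EBP matches at 3 positions (70, 58 and 45 bases before the start), of which the last reads on both strands, as well as matches to the NF-kB letters at 197, 33 and 10 bases, the first of them overlapping a match on the other strand. The Cd55 window held NF-kB matches near 151, 61 and 17 bases and no C/EBP match. None of the 3 held a STAT, interleukin-6 response element or TATAAA match. Over 32851 RefSeq promoters of the same length, 36.8% had at least 1 C/EBP match, 2.61% had them at 3 or more positions and 0.591% at 4 or more, while 45.8% had an NF-kB, 7.02% a STAT, 9.10% an interleukin-6 response element, 12.4% a TATAAA and 5.25% a TATATA match. These are matches of letters, not binding sites. Promoters were available for 5 of the 9 members (Saa3, Lcn2, C3, C1ra and Cd55). The window of C1ra, which also fell on stretch in every animal, held 2 C/EBP, 0 NF-kB and 1 interleukin-6 response element match. That of Lcn2 held 1 C/EBP and 1 NF-kB match. The promoters printed were picked with the changes on stretch known, so no contrast between them is read from the matches.

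Values are given as TMM-normalized CPM, the reads of a gene scaled to a common library size after the TMM adjustment of library totals. Library totals were between 9777738 and 21203938 reads, and each of the 4 stretched libraries was deeper than every static one. The amount taken as detectable was 3 reads, which covers counting error only. Cav1, the targeted gene, was at 764, 275, 570 and 247 CPM in the WT cultures (static 1 and 2, stretch 1 and 2) and at 34.5, 18.9, 20.0 and 12.8 in the CAV1-/- cultures. The cultures expressed mesothelial genes such as Msln and Krt18, with values for 11 of 12 markers, but the summed level of these markers was 2919 to 3784 CPM in WT and 853 to 1108 in CAV1-/- cultures. Leukocyte markers (10 of 12 with values, none at 0) summed to 4734 and 4862 CPM in the static and stretched culture of CAV1-/- replicate 1 against 60.7 to 457 in the other 6, and 10 of 10 were higher in both of these cultures than in any other. Fibroblast markers (8 of 8 with values) summed to 7307 to 17364 CPM, with replicate 2 of either genotype above replicate 1. Endothelial markers (4 of 6 with values, Emcn at 0 in both cultures of CAV1-/- replicate 2) summed to 16.7 to 49.1 CPM. Adipocyte markers (3 of 5 with values, Plin1 at 0 in 4 cultures) summed to 4.43 to 31.3 CPM.

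The members spanned a wide range of levels. Per kilobase of merged exons, the mean over the 8 cultures was 331 CPM for Saa3, 143 for C3, 45.8 for Serping1, 16.9 for C1ra, 14.7 for Hp, 11.7 for Cd55, 4.20 for Cfb, 1.13 for C4b and 0.341 for Lcn2. The range of C3 (89.3 to 219 CPM per kilobase) lay above that of Serping1 (21.9 to 61.6), while the ranges of neighbours elsewhere in this order overlapped, such as Saa3 (38.1 to 1188) with C3, and C1ra (2.93 to 33.2) with Hp (2.96 to 35.6) and Cd55 (2.58 to 15.9). Compared within each culture, Serping1 also lay above C1ra in all of them. Cfb ranged from 0.542 to 8.32, C4b from 0.605 to 1.97 and Lcn2 from 0 to 1.29 CPM per kilobase, and these ranges overlapped as well.

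**Figure D1:**
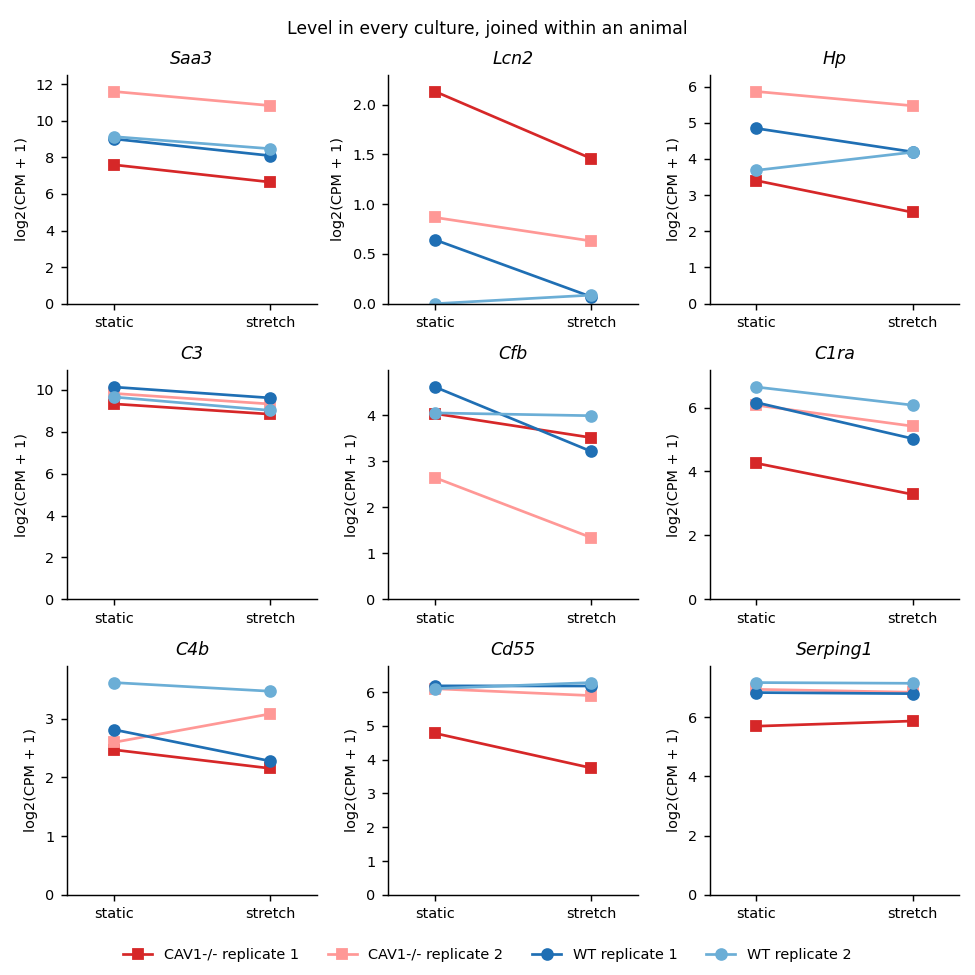
Level of each of the 9 genes in every culture, as log2(TMM-normalized CPM + 1), with lines joining the static and the stretched culture of an animal (WT circles, CAV1-/- squares). Saa3, C3, Cfb and C1ra slope down in all 4 animals, and for Saa3 and Hp the 2 CAV1-/- animals lie on either side of the WT animals in static culture.

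Saa3 had the highest mean level per kilobase, and its highest and lowest culture differed 31.2-fold, with CAV1-/- replicate 2 far above the other animals. In WT MCs the static cultures of replicates 1 and 2 had 513 and 559 CPM and their stretched counterparts 272 and 354. CAV1-/- MCs had 192 and 3096 CPM when static and 99.3 and 1819 when stretched. The WT animals lay close together, whereas CAV1-/- replicate 1 was below and CAV1-/- replicate 2 above every WT culture of the same condition. Within each animal the level on stretch was lower, at 0.529 and 0.633 of the static level in WT and at 0.518 and 0.588 in CAV1-/- animals. The mean change was −0.82 on the log2(CPM + 1) scale (standard error 0.07, n = 4 animals), given without a test because this fall chose the gene. In these bulk libraries, fewer cells of a type and less RNA per cell cannot be told apart.

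Hp, haptoglobin, stood in a similar order across animals. It was at 27.7 and 11.9 CPM in static and at 17.3 and 17.2 in stretched WT MCs, and at 9.56 and 57.2 CPM in static and 4.75 and 43.3 in stretched CAV1-/- MCs. The level was lower on stretch in 3 animals and higher in WT replicate 2, and the mean difference of −0.35 (standard error 0.21, limma adjusted p = 0.364) did not pass the threshold. Over the 8 cultures, which come from 4 animals, the correlation of log2(CPM + 1) between Saa3 and Hp was r = 0.93, given as a description.

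Lcn2, lipocalin-2, was near the limit of detection, with 0 to 41 reads. It had 8 and 0 reads in static and 1 and 1 in stretched WT MCs, and 41 and 8 reads in static and 36 and 10 in stretched CAV1-/- MCs. This corresponds to 0.560, 0, 0.0493 and 0.0616 CPM in WT and 3.38, 0.822, 1.75 and 0.547 CPM in CAV1-/- cultures. The highest values were thus in both cultures of CAV1-/- replicate 1, the animal whose leukocyte markers stood apart, and the part of these cells in the level was not tested. The mean change on stretch, −0.35 with a standard error of 0.18, did not pass the threshold (adjusted p = 0.303 by limma).

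**Figure D2:**
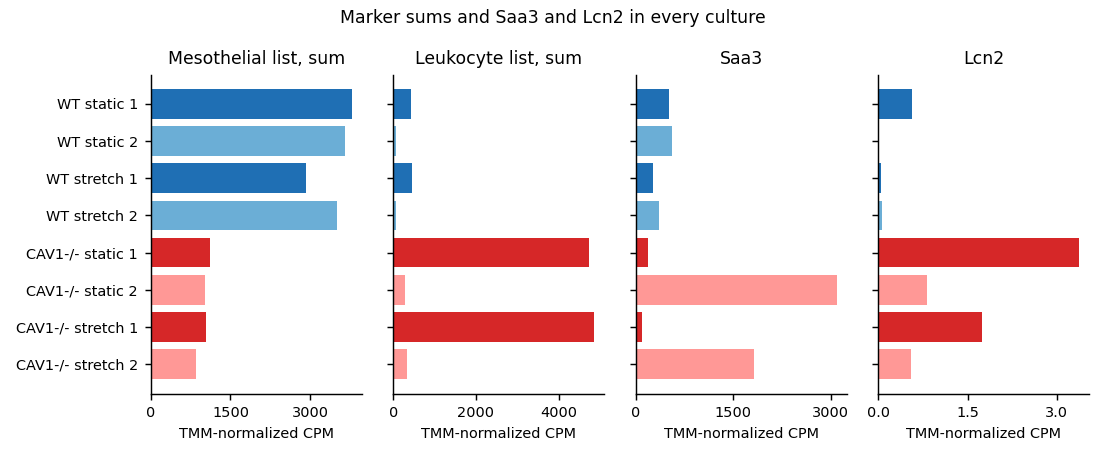
Bars show the summed TMM-normalized CPM of the mesothelial and leukocyte marker lists and the CPM of Saa3 and Lcn2 in each of the 8 cultures (WT blue, CAV1-/- red). Leukocyte markers reached 4734 and 4862 CPM in CAV1-/- replicate 1, where Lcn2 was highest and Saa3 lowest, while Saa3 was highest in CAV1-/- replicate 2.

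The complement gene with the steadiest change was C3. It was at 1127 and 809 CPM in static and at 787 and 520 in stretched WT MCs, and at 644 and 912 CPM in static and 459 and 643 in stretched CAV1-/- MCs. The stretched level was 0.698 and 0.643 of the static one in WT and 0.713 and 0.705 in CAV1-/- animals, and in either genotype both stretched cultures lay below both static ones. With the animal as a block, which compares the cultures of the same animal, C3 fell by a mean of 0.54 on the log2 scale (standard error 0.06, n = 4 animals, adjusted p = 0.0162 from limma).

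C1ra fell as well, from 70.4 and 99.0 CPM in static to 31.7 and 66.5 in stretched WT MCs and from 18.1 and 66.4 to 8.73 and 41.8 in CAV1-/- MCs. It was lower on stretch in every animal, at 0.449 and 0.672 of the static level in WT and at 0.482 and 0.630 in CAV1-/- animals. Over all 8 cultures the highest and the lowest level differed 11.3-fold. C1ra fell by a mean of 0.83 on the log2 scale (standard error 0.10, n = 4 animals, limma adjusted p = 0.0164), with the limit that C1rb shares much of its sequence.

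Of the 8 members other than Saa3, 2 (C3 and C1ra) had an adjusted p-value under 0.05 for this mean change, against 2.25% of the 13665 genes tested (308 genes, 1.22% lower and 1.03% higher on stretch). Because the fall of Saa3 in this comparison was among the reasons for grouping these genes, nothing is read from the count. When 1 culture was left out and 3 animals remained, C3 lost its call without either culture of WT replicate 2 (adjusted p = 0.0519 and 0.0524 from limma) or any CAV1-/- culture (0.0671 to 0.0723), and C1ra without any CAV1-/- culture (0.0679 to 0.0864). With both cultures of CAV1-/- replicate 1 left out, the changes were −0.55 for C3 (adjusted p = 0.0670 from limma) and −0.78 for C1ra (0.0843), and 4 genes were called in all. Without the block the spread between animals enters the error, and the adjusted p-values were 0.984 for C3 and 0.991 for C1ra, with 0 genes called in the table.

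Cfb, factor B, was also lower on stretch in all 4 animals, but by very different amounts. It was at 23.5 and 15.6 CPM in static and 8.28 and 14.9 in stretched WT MCs, and at 15.4 and 5.24 in static and 10.4 and 1.53 in stretched CAV1-/- MCs. The stretched level was 0.352 and 0.957 of the static one in WT and 0.677 and 0.292 in CAV1-/- animals, so WT replicate 2 was nearly level. Its mean difference of −0.82 (standard error 0.22, limma adjusted p = 0.0986) did not pass the threshold. It passed with DESeq2 on the recovered reads (−0.93, adjusted p = 0.0342), the only other tool among those tried that called it.

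Beside Saa3, C3, Cfb and C1ra, 3 of the other 8 members, were lower on stretch in all 4 animals and none was higher in all 4, where 16.9% of the genes tested were lower and 14.5% higher in all 4. Nothing is read from this count either. C4b was at 6.02 and 11.2 CPM in static and 3.85 and 10.0 in stretched WT MCs, and at 4.53 and 5.04 in static and 3.44 and 7.44 in stretched CAV1-/- MCs, with a mean difference of −0.13 (standard error 0.17, limma adjusted p = 0.704). Its level was lower on stretch in 3 animals and higher in CAV1-/- replicate 2.

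The regulators did not pass the threshold. Cd55 was at 71.9 and 67.9 CPM in static and 71.7 and 77.0 in stretched WT MCs, and at 26.5 and 67.7 in static and 12.5 and 58.7 in stretched CAV1-/- MCs, with a mean difference of −0.26 (standard error 0.18, limma adjusted p = 0.434). The stretched level was 0.472 of the static one in CAV1-/- replicate 1 and between 0.867 and 1.13 in the other animals. Serping1 was at 113 and 143 CPM in static and 110 and 141 in stretched WT MCs, and at 50.9 and 122 in static and 57.6 and 114 in stretched CAV1-/- MCs. Its stretched level was between 0.934 and 1.13 of the static one, and the mean difference was 0.0039 (standard error 0.07, limma adjusted p = 0.980).

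**Figure D3:**
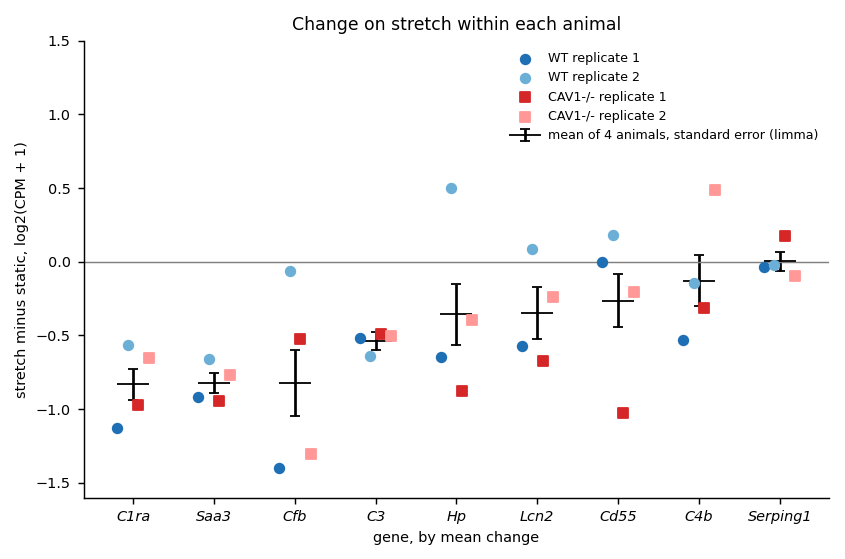
Change on stretch of each gene within each animal, as the difference of log2(TMM-normalized CPM + 1), stretch minus static, with the mean and standard error of 4 animals from limma in black. The 4 points of C3 lie between −0.64 and −0.49 and those of Serping1 close to 0, while those of Cfb spread from −1.40 to −0.06.

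Mesothelial markers did not all change in the same direction on stretch. Their summed level was lower on stretch in each animal, at 3784 and 3662 CPM in static against 2919 and 3510 in stretched WT MCs and at 1108 and 1018 against 1043 and 853 in CAV1-/- MCs. Of 11 markers, 4 were lower in all 4 animals and 1, Pdpn, was higher (mean change 0.26). Of all genes tested, 16.9% were lower and 14.5% higher in all 4. Krt7 and Upk3b fell (mean changes −0.88 and −1.04, adjusted p = 0.0286 and 0.0496 from limma). The mean change was below 0 for 7 of the 11 markers and above 0 for 4, and Krt8 and Krt18 were higher on stretch in 3 animals. The leukocyte sum was slightly higher on stretch in each animal (427 and 60.7 against 457 and 66.0 CPM in WT, 4734 and 284 against 4862 and 321 in CAV1-/- MCs). Lyz2 weighed heavily in this sum, at 3647 of 4734 CPM in static and 3920 of 4862 in stretched CAV1-/- replicate 1. Of 10 leukocyte markers, Lyz2 alone was higher on stretch in all 4 animals, while 6 had a mean change below 0 and 4 above. The part of mesothelial or leukocyte markers in the changes of the members was not tested.

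Taken within a single genotype, with 2 cultures against 2 and no block, 0 of 13665 genes were called for stretch in WT or in CAV1-/- MCs by limma (310 genes or 2.27% and 286 genes or 2.09% had an unadjusted p under 0.05), by edgeR 0 and 0 and by DESeq2 3 and 7. The adjusted p-values of the 8 members tested were 1.00 in both. This fit ignored that static and stretched cultures came in pairs from an animal. With the animal as a block, the adjusted p-values from limma were 0.144 in WT and 0.139 in CAV1-/- MCs for C3. For C1ra they were 0.161 and 0.160, and no member was called. The stretched cultures lay below the static ones without overlap for Saa3, C3, Cfb and C1ra in WT MCs, where 17.2% of all genes did so, and for C3 in CAV1-/- MCs, where 11.9% did. The smallest two-sided p-value that an exact permutation test of 2 against 2 cultures allows is 0.333. The difference between the responses of the genotypes, tested as the interaction, had an adjusted p-value of 1.00 from limma for each of the 8 members other than Saa3 (0 genes called, and 66 or 0.483% with an unadjusted p under 0.05, none with edgeR or DESeq2 after adjustment). For Saa3 no test is given, because its responses were used to select it. This fit had no block, so the spread between animals entered its errors. With the animal as a block, 0 genes were called and 581 had an unadjusted p under 0.05. The adjusted p-values of the members other than Saa3 were 0.947 to 0.992 from limma. The interaction was 0.08 for C3 (standard error 0.45 without and 0.12 with the block), 0.03 for C1ra (1.23 and 0.22) and −0.70 for Cd55 (1.03 and 0.27) on the log2 scale.

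The other genes of the pathway were followed in lists of components, each described by its count and by its median over the genes with values, where the median over all genes was −0.01. Of the 13665 genes tested, 2.25% were called on stretch, 1.22% lower and 1.03% higher. Nothing is read from the counts called in these lists. Of 11 genes that start complement, C1ra was the only one called on stretch, and the median of the mean changes was −0.12. C1s1, the partner protease of C1r and the most abundant of them, was at 371 and 438 CPM in static and 312 and 447 in stretched WT MCs and at 87.4 and 259 in static and 59.6 and 220 in stretched CAV1-/- MCs, with a mean difference of −0.25 (standard error 0.09, limma adjusted p = 0.179). C2 and the collectin Colec12 had mean differences of −0.24 (limma adjusted p = 0.450) and −0.12 (0.569), and each was lower on stretch in 2 animals and higher in 2. C1rl was lower in all 4 animals (−0.63, standard error 0.15, adjusted p = 0.0744 from limma) and is named after its values were seen.

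Of 3 genes for C3 and the steps around it, C3 itself was the one called (median −0.54), with Cfb and the stabilizing factor properdin, Cfp (3.15 and 2.34 CPM in static and 3.45 and 2.09 in stretched WT MCs, 18.4 and 3.60 in static and 13.3 and 3.34 in stretched CAV1-/- MCs), not passing. No terminal component was among the genes with values. Of 7 regulators none was called (median −0.23). Clu, clusterin, was at 160 and 464 CPM in static and 83.8 and 454 in stretched WT MCs and at 11.0 and 424 in static and 9.17 and 508 in stretched CAV1-/- MCs (−0.23, standard error 0.17, adjusted p = 0.463 from limma). Of 5 complement receptors, which include the leukocyte integrins Itgam, Itgax and Itgb2, none was called (median −0.05).

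Of 11 acute-phase genes with values other than Saa3, 10 had a mean change below 0 (median −0.35), where 52.3% of all genes did, and none was called. Several of the 11 were near the limit of detection, such as Lcn2 with 0 to 41 reads, and Hp and Lcn2 are themselves members. Nothing is read from this count. Steap4, a metalloreductase, was at 90.2 and 71.1 CPM in static and 38.0 and 37.5 in stretched WT MCs and at 15.6 and 190 in static and 1.75 and 111 in stretched CAV1-/- MCs. Its mean difference of −1.37 (standard error 0.27, limma adjusted p = 0.0523) lay just outside the threshold. Ptx3, the long pentraxin that binds C1q, was at 9.58 and 64.5 CPM in static and 7.54 and 31.0 in stretched WT MCs and at 68.6 and 75.9 in static and 8.01 and 23.6 in stretched CAV1-/- MCs (−1.48, standard error 0.37, adjusted p = 0.0786 from limma). Both were lower on stretch in all 4 animals, as was Cp, ceruloplasmin (−0.42, adjusted p = 0.0806), which is named after its values were seen. Steap4 stood in the same order across CAV1-/- animals as Saa3, low in replicate 1 and high in replicate 2.

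Of 17 cytokines and receptors that induce acute-phase genes, 1 fell and none rose by the test (median −0.12), where 2.25% of all genes were called. The one that fell was Il6st, gp130, the signaling chain shared by the receptors for interleukin-6, LIF and oncostatin M. It was at 507 and 348 CPM in static and 284 and 258 in stretched WT MCs and at 275 and 384 in static and 196 and 278 in stretched CAV1-/- MCs (−0.55, standard error 0.08, adjusted p = 0.0230 from limma). All 4 animals were lower on stretch. Of the 17 genes, 5 were lower in all 4 animals and 2, Tlr2 and Ifngr1, were higher. Over all genes tested these shares were 16.9% and 14.5%. Osmr, Il1r1 and Tnfrsf1a, the other abundant receptors of the list, did not pass (adjusted p = 0.822, 0.523 and 0.149 from limma).

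Among 22 transcription factors and feedback genes of these pathways, 10 were lower in all 4 animals and none higher (median −0.15). Of all genes tested, 16.9% were lower and 14.5% higher in all 4. Nothing is read from this count. By the test 1 gene of the list was called. Zfp36, tristetraprolin, which promotes decay of cytokine mRNAs, was at 49.2 and 53.4 CPM in static and 34.8 and 40.8 in stretched WT MCs and at 42.4 and 40.4 in static and 29.4 and 28.5 in stretched CAV1-/- MCs (−0.47, standard error 0.06, adjusted p = 0.0210 from limma). Stat3, the most abundant, had a mean difference of −0.09 (standard error 0.05, adjusted p = 0.372 from limma). Of 5 receptors of acute-phase proteins none was called (median −0.21). Like C3 and C1ra, Il6st and Zfp36 lost their calls without the animal as a block (adjusted p = 0.984 from limma for both) and reached adjusted p-values of 0.0930 and 0.0966 when a culture was left out.

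**Figure D4:**
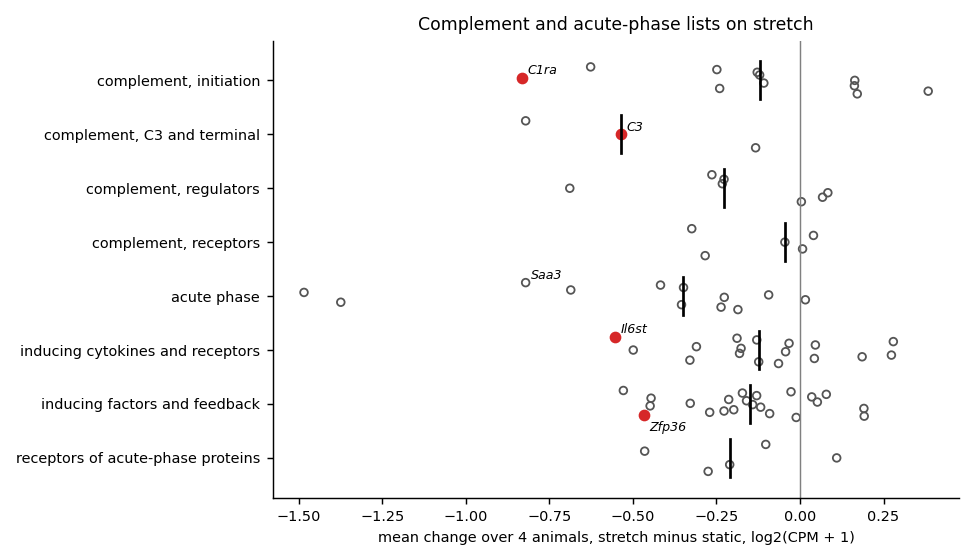
Mean change on stretch over 4 animals, as the difference of log2(TMM-normalized CPM + 1), for the genes of 8 lists with values; black bars are list medians and filled red points are genes called by limma. C1ra, C3, Il6st and Zfp36 are filled, and Saa3 is labelled but open because it was not tested.

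CAV1-/- and WT MCs were then compared within each condition. None of the 9 members was called in static culture, where 10 genes (0.0732%) were called in all, or on stretch, where 8 genes (0.0585%) were. In static culture the log2 differences, CAV1-/- minus WT, were 1.18 for Lcn2 (2.84 with edgeR and 2.93 with DESeq2 on the recovered reads), 0.53 for Saa3 (1.62 and 1.63) and 0.37 for Hp (0.75 and 0.77), and −0.32 for C3, −0.68 for C4b and Serping1, −0.70 for Cd55, −0.99 for Cfb and −1.23 for C1ra, with adjusted p-values of 0.658 to 0.979 from limma. On stretch they were 0.97 for Lcn2 (4.20 with edgeR and 4.39 with DESeq2), 0.46 for Saa3 (1.62 with either), −0.19 for Hp (0.48 with either), −0.24 for C3, −0.26 for C4b, −0.61 for Serping1, −1.18 for Cfb, −1.20 for C1ra and −1.41 for Cd55, with adjusted p-values of 0.903 to 1.00 from limma. The stretched and the static comparison are made of the same animals. The values of Lcn2 are on a scale that understates differences at low levels.

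For Saa3 the standard error of the difference was 1.66 in either condition, larger than the difference, since the 2 CAV1-/- animals lay on opposite sides of WT. Without CAV1-/- static replicate 2 the static difference was −1.48, and without CAV1-/- static replicate 1 it was 2.53. On stretch the corresponding values were −1.63 and 2.55. Fibroblast markers summed to 17364 and 15897 CPM in the static and stretched culture of CAV1-/- replicate 2, the animal with the highest Saa3, against 7307 and 8255 in CAV1-/- replicate 1. Col1a1 made up 15404 of the 17364 CPM. In static WT MCs this sum was 8229 and 14719 CPM in replicates 1 and 2, where Saa3 was at 513 and 559. The part of fibroblasts in the level of Saa3 was not tested. The difference of Hp between genotypes behaved like that of Saa3, at −0.86 and 1.60 in static culture without the one or the other CAV1-/- culture.

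Groups that did not overlap were found for 1 member higher in static CAV1-/- MCs (Lcn2, where 16.1% of all genes lay higher) and for 4 lower (Cfb, C1ra, C4b and Cd55, where 20.8% lay lower). On stretch they were Lcn2 (14.6% of all genes higher) and Cd55 (15.9% lower). Over all 4 cultures of a genotype, Cd55 alone lay lower without overlap, at 12.5 to 67.7 CPM in CAV1-/- against 67.9 to 77.0 in WT MCs, where 5.88% of all genes did so, and no member lay higher (3.86%). The separation of Cd55 was narrow in static culture, with 67.7 CPM in CAV1-/- replicate 2 next to 67.9 in WT replicate 2. Without CAV1-/- replicate 1 the differences were −0.04 in static culture and −0.33 on stretch for Cd55, −0.33 and −0.13 for C1ra, and −0.06 and −0.13 for Serping1. Those of Cfb, −1.69 and −2.26, were larger without this animal. In CAV1-/- MCs the mesothelial sum was 853 to 1108 CPM against 2919 to 3784 in WT MCs, and its part in these differences was not tested.

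**Figure D5:**
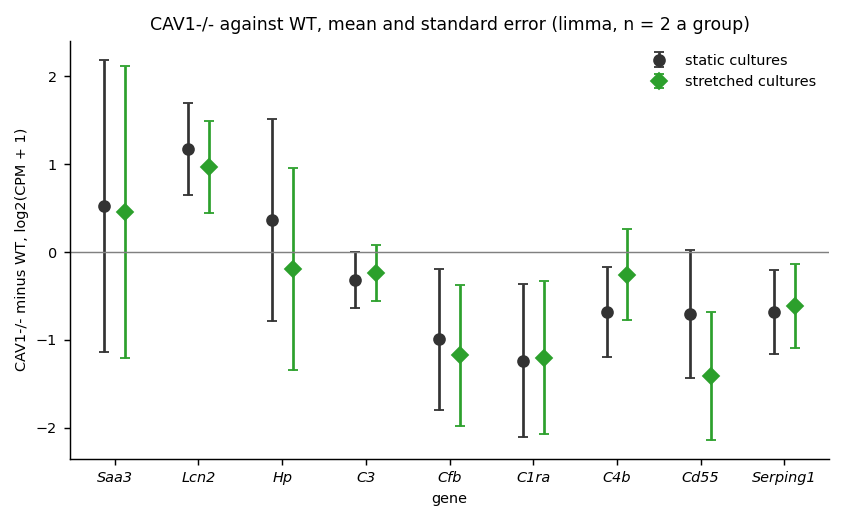
Difference between CAV1-/- and WT MCs for each gene, as log2(TMM-normalized CPM + 1), CAV1-/- minus WT, in static (black circles) and stretched cultures (green diamonds), with the standard error from limma (n = 2 cultures a group). The error of Saa3, 1.66 on either side, spans 0 widely, and no gene passed the test.

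The genes whose levels followed those of 3 members most closely over the 8 cultures were found among 1697 genes with a mean of at least 5 CPM and a standard deviation of at least 0.5 on the log2 scale. The correlations are descriptions over 8 cultures of 4 animals. For Saa3 they were Fgf5 (r = 0.958), H2-T22 (0.958), Hlx (0.957) and Dpy19l1 (0.954). Fgf5, a fibroblast growth factor, was at 2.59 and 4.68 CPM in static and 3.25 and 4.07 in stretched WT MCs and at 1.24 and 15.7 in static and 0.291 and 8.65 in stretched CAV1-/- MCs, again lowest in CAV1-/- replicate 1 and highest in replicate 2. H2-T22 belongs to a multigene family whose members share sequence, so its values are uncertain.

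For Lcn2 the closest genes were Epas1 (r = 0.980), Cd300ld (0.973), Slc15a3 (0.972) and Itgb2 (0.971). Itgb2, the beta chain of the leukocyte integrins, was at 26.8 and 6.94 CPM in static and 17.6 and 8.69 in stretched WT MCs and at 461 and 30.7 in static and 248 and 31.9 in stretched CAV1-/- MCs, with both high values in CAV1-/- replicate 1. For C3 they were Cd34 (r = 0.931), Fgfr2 (0.926), Slc9a3r1 (0.926) and Adamts5 (0.900). Adamts5, an aggrecan-cleaving protease, was at 199 and 117 CPM in static and 101 and 56.7 in stretched WT MCs and at 116 and 104 in static and 40.5 and 55.2 in stretched CAV1-/- MCs, and its stretched level was lower in every animal.

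Among the members themselves, C1ra, Cd55 and Serping1 had pairwise Pearson correlations of r = 0.90 to 0.91 over 8 cultures of 4 animals, each with its lowest values in CAV1-/- replicate 1. Lcn2 ran the other way from Serping1 (r = −0.92), with its highest values in that animal.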

How the data were processed

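Per the file headers, the labels and the methods of the study, the authors removed adaptors from 61-base single reads (Cutadapt), used RSEM against the transcriptome of GRCm38 for expected reads of each gene, and applied the TMM scaling of edgeR. CASAVA is also named in the submitters' processing notes. The library kit is not described as marking strand. The authors deposited the resulting signal, TMM-normalized CPM, for 13687 genes, with 0 further columns of samples left unmapped. All values (100%, tolerance 0.01 reads) were whole multiples of the value of 1 read in their library, so reads were recovered. Nothing says that cultures beyond the 4 animals were independent. Without a block, the p-values rest on the spread between the cultures of a group. Where the animal was a block, they rest on how far the change on stretch varied between animals.

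For log2 a pseudocount of 1 was added, and the 13665 genes with at least 1 CPM in at least 2 of 8 libraries were tested by limma 3.58.1 (R 4.3.3, eBayes with trend, Benjamini-Hochberg over all genes, called under 0.05), with 1 mean per group and no block. Stretch averaged over the animals was fitted with the animal as a block. The labels name the animal of each culture, so the pairing comes from the design. Static and stretched cultures of an animal deviated together from their group means (r = 0.703 in WT and 0.850 in CAV1-/- animals, across genes). Same-numbered cultures of the 2 genotypes, which are different animals, did so too (r = 0.522 in static and 0.484 in stretched cultures). These correlations are therefore not used to establish the pairing. Alternatives were pseudocounts of 0.1 and 5, no filter, a mean of at least 5 CPM, median-of-ratios and quantile rescaling, the replicate block or its removal, only the 4 libraries compared, edgeR 4.0.16 (quasi-likelihood) and DESeq2 1.42.0 on recovered reads, and each culture left out. Leaving out both cultures of CAV1-/- replicate 1, and edgeR with the replicate block, were added after the values were seen. The fits were tested on simulated data.

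The genes named were the 9 members, Cav1, the 4 genes most correlated with Saa3, Lcn2 and C3, and genes drawn from the 4 most abundant and the called genes of each list, not all of which are named. A gene of the regulator list is not reported here by name. Members, lists and tests were chosen with earlier results of these data known. Positions, exon lengths and transcript sequences came from GENCODE M21 (GRCm38), promoters from RefSeq (GRCm38.p6).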

Additional observations from a re-analysis of the deposited data

How the results depend on the processing

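Each group held 2 cultures of 2 animals, and every stretched library was deeper than every static one, so depth and stretch cannot be told apart. In the averaged stretch comparison 308 genes and, with Saa3 not counted as a member, 2 members were called by limma, against 0 and 0 with no replicate block and 779 genes with DESeq2. The number ran from 0 to 147 genes and from 0 to 2 members when a culture was left out, and was 4 genes and 0 members without both cultures of CAV1-/- replicate 1. In the static genotype comparison the 10 genes called became 246 with the replicate number as a block, 229 with edgeR and this block, 309 with DESeq2, 2 with edgeR alone, 0 with only the 4 libraries compared and 0 to 8 with a culture left out. Same-numbered cultures of the 2 genotypes come from different animals but also deviated together (r = 0.522 in static and 0.484 in stretched cultures). On stretch the 8 genes became 110 with the block, 90 with edgeR and the block, 237 with DESeq2, 0 with only the 4 libraries and 0 to 7 with a culture left out. For stretch within a genotype, where limma called 0 genes, DESeq2 called 3 in WT and 7 in CAV1-/- MCs, and in CAV1-/- MCs the block gave 1 gene and edgeR with the block 2. None of these settings called a member within a genotype or between genotypes, and the block changed no other call. The causes were not tested.

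Among the log2 changes of single members in the averaged stretch and the 2 genotype comparisons, 270 alternative values kept direction and call, 3 changed sign, 1 gained and 2 lost the call, not counting cultures left out. The changes of sign were Hp between genotypes on stretch (0.476 with edgeR, 0.484 with DESeq2) and Serping1 on averaged stretch (−0.0172 with quantile normalization), and the gain was Cfb with DESeq2. Outside these comparisons, Serping1 on stretch in CAV1-/- MCs changed sign with edgeR (−0.0107) and DESeq2 (−0.0142), as did the interaction of Lcn2 (0.0130 with a pseudocount of 0.1, 1.36 with edgeR, 1.46 with DESeq2, 1.37 with edgeR and the block), Saa3 (0.000168 with edgeR) and Cfb (0.0486 with a pseudocount of 5). With cultures left out, 214 kept both, 17 changed sign and 12 lost the call. The ranges of those that changed sign were −1.48 to 2.53 (static) and −1.63 to 2.55 (stretch) for Saa3 between genotypes, −0.864 to 1.60 and −1.66 to 1.28 for Hp, −0.534 to 0.0618 for C3 and −0.850 to 0.338 for C4b on stretch (0.00623 and 0.207 without both cultures of CAV1-/- replicate 1), and, for averaged stretch, −0.332 to 0.00705 for C4b and −0.0528 to 0.0377 for Serping1.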
